A study of Mus musculus with 13 samples.

Results

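The miRNA described here is mouse miR-31, counted as 1 precursor (hairpin) row, mmu-mir-31, and as 2 mature rows, miR-31-5p and miR-31-3p. It was chosen by its measured level in these same libraries, as a miRNA that was higher in *Tet2/3* DKO than in WT iNKT cells, so every difference in its level between genotypes is given below as a description and carries no test. The hairpin is 1 of 1127 hairpins listed and the arms are 2 of 1297 mature sequences listed. Invariant natural killer T (iNKT) cells are innate-like T cells whose nearly uniform TCR binds lipids presented by CD1d. Small RNA was sequenced from thymic iNKT cells of 6 WT (C57BL/6) mice and 7 *Tet2/3* DKO mice of 21 to 25 days, 1 library per mouse. The *Tet2/3* DKO mice carried *Tet2*-/- in every tissue together with *Tet3* flx/flx and CD4 cre, which removes *Tet3* from T cells once they express CD4, and the WT mice carried neither allele nor the cre. Live TCRβ+ cells that bound a lipid-loaded tetramer were sorted after CD24+ cells had been depleted. Each library is thus a mixture of the iNKT subsets of one thymus that remained after this depletion.

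A miRNA is transcribed as a long primary RNA, cut to a hairpin in the nucleus by DROSHA and trimmed in the cytoplasm by DICER, after which one of the arms is loaded into an Argonaute protein. The loaded arm recognizes target mRNAs mainly through its seed, the stretch from base 2 to base 8. In T cells, miR-31 is known to be induced by TCR signals and has been studied for its part in effector and regulatory T cells, and outside the immune system it is known from epithelium, mesenchyme and tumors.

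The sequences below are those that the rows are named for, and they show where the arms lie in the hairpin. They come from RefSeq (GRCm38.p6, the assembly also called mm10), run 5′ to 3′, and mark both arms in capitals in the hairpin and the seed in capitals in each arm.
mmu-mir-31: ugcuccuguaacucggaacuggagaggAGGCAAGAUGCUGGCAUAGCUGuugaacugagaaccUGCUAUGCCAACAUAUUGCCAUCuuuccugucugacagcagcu
miR-31-5p: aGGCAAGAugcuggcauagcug
miR-31-3p: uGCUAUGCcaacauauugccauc

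The hairpin has 106 bases, more than the single-end reads of the study. A hairpin count is thus a count of reads assigned to that row, not of whole precursors. The 5p arm takes bases 28 to 49, the 3p arm bases 64 to 86, and 14 bases separate them. A perfect match to the seed in an mRNA would read UCUUGCC for the 5p arm and GCAUAGC for the 3p arm. Among the 1679 mature mouse names of the RefSeq table, 0 others had the seed of miR-31-5p and 0 others had that of miR-31-3p, so in that table the seed of each arm belonged to mir-31 alone.

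The gene *Mir31* lies at chr4:88910557-88910662 on the minus strand. In the GENCODE annotation of GRCm38 the whole hairpin is inside exon 3 of the long noncoding RNA gene *AL805899.1*, on the same strand. The nearest protein-coding genes are *Ifne*, a type I interferon gene, 30.4 kb away on one side and *Mtap*, an enzyme gene of methionine salvage, 226 kb away on the other. The only other miRNA gene of the RefSeq table within 1 Mb is *Mir491*, at 788 kb.

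Counts were not normalized by the authors. Library totals were 469117 to 1110226 counts (WT) and 728653 to 1910526 counts (*Tet2/3* DKO) for hairpins, and 1110852 to 2582057 and 1837631 to 4361963 counts for mature sequences, so that WT libraries were shallower on the whole. Levels are given as CPM, counts scaled to library size with TMM factors, and differences are log2 fold changes of an edgeR quasi-likelihood fit with their standard errors. Each is thus a level among the miRNAs of its own library, not an amount per cell. In sorted bulk cells, fewer cells that express a miRNA and less of it per cell cannot be told apart. The miRNAs taken as T cell markers were all detected, at very different levels. In WT miR-181a-5p had 140494 ± 20477 CPM (SD, n = 6), in *Tet2/3* DKO it had 137445 ± 24052 CPM (SD, n = 7), and miR-155-5p had 76.0 ± 33.9 and 105 ± 35.7 CPM, without a call for either. The hairpins differed from these arms, since mir-181a-1 (36581 ± 9904 to 67501 ± 17335 CPM) and mir-155 (158 ± 70.3 to 256 ± 66.1 CPM) were called higher in *Tet2/3* DKO. Of all tested hairpins 32.6% were called higher. Called lower in *Tet2/3* DKO were miR-150-5p, from 26723 ± 6756 to 11833 ± 3403 CPM, and miR-142a-3p, of all blood cells, from 27306 ± 2108 to 20556 ± 2894 CPM, where 27.4% of all tested mature miRNAs were called lower. The hairpins mir-150 and mir-142a were called lower as well, where 27.1% of all tested hairpins were.

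The mir-31 hairpin was present in every library and had far more reads in each *Tet2/3* DKO library than in any WT library. WT replicates 1 to 6 had 76, 39, 234, 188, 72 and 169 counts. *Tet2/3* DKO replicates 1 to 7 had 6179, 6900, 4861, 4443, 7071, 6143 and 1791 counts. The shallowest *Tet2/3* DKO library, replicate 7, still held more hairpin reads than all WT libraries together, which had 778.

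On the scaled level, WT replicates 1 to 6 had 175, 71.3, 239, 199.98, 83.1 and 241 CPM of the hairpin. *Tet2/3* DKO replicates 1 to 7 had 3469, 3688, 3932, 2102, 4225, 3039.7 and 2115 CPM. Replicates 2 and 5 were low within WT and replicates 4 and 7 within *Tet2/3* DKO. The genotypes did not overlap, and the lowest *Tet2/3* DKO mouse was 8.71-fold above the highest WT mouse. The means were 168 ± 74.9 CPM (SD, n = 6) and 3224 ± 847 CPM (SD, n = 7), a 19.2-fold ratio of means and a log2 fold change of 4.25 (SE 0.324). This was the largest log2 fold change of the 350 tested hairpins, and the next was 3.01. Called differences were common in this table, since 59.7% of tested hairpins were called at an adjusted p-value under 0.05 and 32.6% were called higher in *Tet2/3* DKO, and for 18.0% all *Tet2/3* DKO mice exceeded all WT mice. As mir-31 was chosen by this contrast, these shares are given for scale only. They count every row, so copies within repeat families with the same values, such as mir-669a-4 and mir-669a-5, enter more than once.

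The 5p arm, which held nearly all mature reads, followed the hairpin. WT replicates 1 to 6 had 163, 134, 383, 299, 109 and 260 counts of miR-31-5p. *Tet2/3* DKO replicates 1 to 7 had 9484, 11559, 7516, 7095, 10625, 9740 and 3096 counts. The same mice were at the low end as for the hairpin, replicates 2 and 5 in WT and replicates 4 and 7 in *Tet2/3* DKO.

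In CPM, WT replicates 1 to 6 had 153, 103, 157, 134, 55.7 and 165 of miR-31-5p. *Tet2/3* DKO replicates 1 to 7 had 2427, 2531, 2673, 1496, 2715, 2357 and 1389 CPM. The groups again did not overlap, with an 8.41-fold gap between the lowest *Tet2/3* DKO and the highest WT mouse. The means were 128 ± 41.8 CPM (SD, n = 6) and 2227 ± 551 CPM (SD, n = 7), a ratio of 17.4 and a log2 fold change of 4.12 (SE 0.264), the largest of the 401 tested mature miRNAs. Of the tested mature sequences, 55.6% were called at an adjusted p-value under 0.05, 28.2% were called higher, and for 12.7% all *Tet2/3* DKO mice exceeded all WT mice. The plot of levels by mouse shows the hairpin and both arms side by side.

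**Figure D1:**
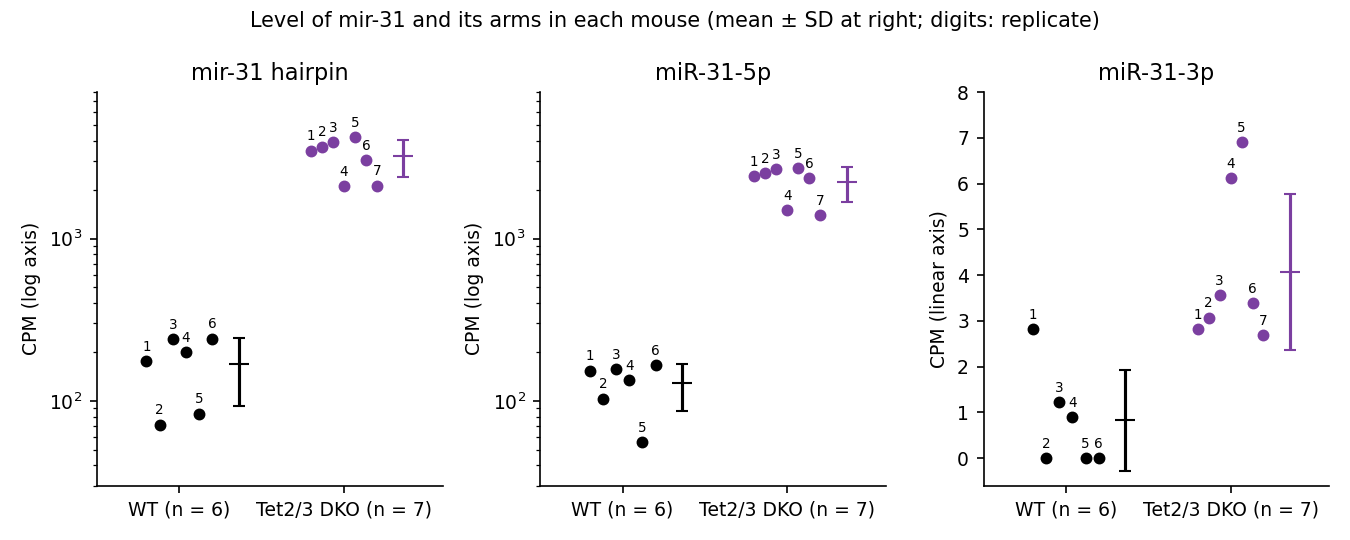
CPM of the mir-31 hairpin and miR-31-5p (log axes) and of miR-31-3p (linear axis) in each WT mouse (black) and *Tet2/3* DKO mouse (purple), with digits for the replicate and a bar for mean ± SD. The hairpin and the 5p arm are separated by a gap of more than 8-fold, while the 3p arm is at most 6.90 CPM and its groups overlap.

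The change in level was also a change in rank. By mean CPM, the hairpin was number 166 of 1127 in WT and number 40 in *Tet2/3* DKO, and within single libraries it was number 140 to 221 (WT) and number 35 to 52 (*Tet2/3* DKO). In WT it stood between mir-5112 (174 ± 92.6 CPM) and mir-297a-3 (167 ± 46.8 CPM). In *Tet2/3* DKO it stood between let-7b (3255 ± 447 CPM) and mir-181d (3184 ± 668 CPM). Each of these neighbours was within 1 SD of the mean of mir-31, so the order among them was not resolved.

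Mature miR-31-5p was number 146 of 1297 by mean CPM in WT, between miR-330-3p (131 ± 16.3 CPM) and miR-29c-3p (126 ± 29.8 CPM), and number 48 in *Tet2/3* DKO, between miR-20b-5p (2321 ± 311 CPM) and miR-324-5p (2061 ± 284 CPM). Within libraries it was number 135 to 195 (WT) and number 44 to 59 (*Tet2/3* DKO). In WT its share of all mature counts was 0.0118% ± 0.00424 (SD, n = 6), and in *Tet2/3* DKO it was 0.240% ± 0.0575 (SD, n = 7). Even there miR-31-5p was thus a small part of the mature pool.

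**Figure D2:**
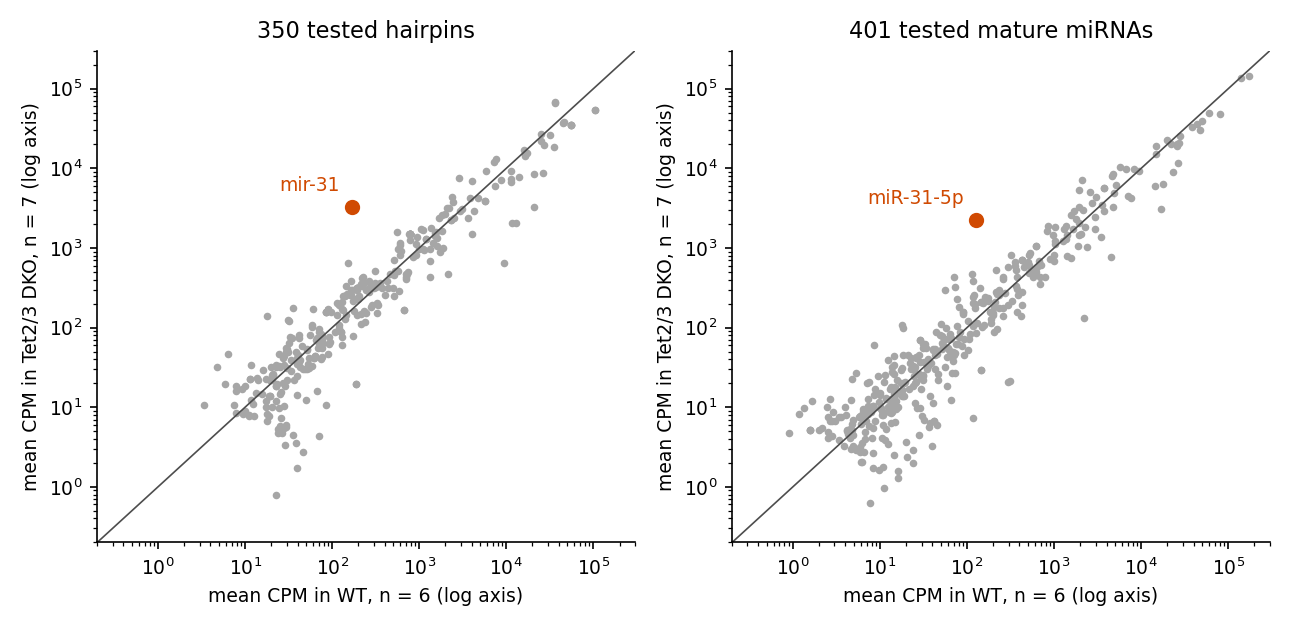
Mean CPM in WT (x, n = 6) against mean CPM in *Tet2/3* DKO (y, n = 7), both on log axes, for the 350 tested hairpins (left) and the 401 tested mature miRNAs (right), with the line of equal levels. The mir-31 hairpin (168 against 3224 CPM) and miR-31-5p (128 against 2227 CPM) lie farther above the line than any other point.

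The 3p arm was rare in both genotypes and too rare for the edgeR filter on low counts, so it has no fit of its own. WT replicates 1 to 6 had 3, 0, 3, 2, 0 and 0 counts of miR-31-3p, 8 in all. *Tet2/3* DKO replicates 1 to 7 had 11, 14, 10, 29, 27, 14 and 6 counts, 111 in all. All 7 *Tet2/3* DKO libraries but only 3 of 6 WT libraries held the arm.

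In CPM, WT replicates 1 to 6 had 2.82, 0, 1.23, 0.895, 0 and 0 of miR-31-3p. *Tet2/3* DKO replicates 1 to 7 had 2.81, 3.07, 3.56, 6.12, 6.90, 3.39 and 2.69 CPM. The groups overlapped, since WT replicate 1, with 3 counts in the shallowest library, was above *Tet2/3* DKO replicates 1 and 7. The means were 0.824 ± 1.11 CPM (SD, n = 6) and 4.08 ± 1.70 CPM (SD, n = 7). With counts pooled over mice, the WT level was 0.757 CPM and the *Tet2/3* DKO level 4.22 CPM, a ratio of 5.58 with a 95% exact interval from 2.73 to 13.2 that covers counting error only. The pooled ratio of miR-31-5p was 17.6. As the 8 WT reads of the 3p arm come from 3 of 6 mice, whether the fold differs between the arms was not tested.

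Because both arms are counted in the same library, their ratio does not depend on how libraries are scaled. Pooled over mice, miR-31-3p was 0.590% of the reads of both arms in WT (8 of 1356 reads, 95% Wilson interval from 0.299 to 1.16%) and 0.187% in *Tet2/3* DKO (111 of 59226, from 0.156 to 0.226%). There were 168.5 reads of the 5p arm per 3p read in WT and 533 in *Tet2/3* DKO. The intervals of the pooled shares leave out the spread between mice. Averaged over WT mice the share was 0.541% ± 0.714 (SD, n = 6), averaged over *Tet2/3* DKO mice it was 0.195% ± 0.105 (SD, n = 7), and the SD in WT was larger than the difference.

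Single WT libraries say little about the arms. Among them the share was highest in replicate 1, at 1.81% (95% Wilson interval from 0.616 to 5.18%). In replicates 2, 5 and 6 it was 0 of 134, 0 of 109 and 0 of 260 reads, which allow shares of up to 2.24, 2.75 and 1.15% by a limit of 3 counts. Within *Tet2/3* DKO some libraries differed by more than counting error. With 1 library per mouse, differences between mice and between library preparations cannot be told apart. Replicate 4 had 0.407% (from 0.284 to 0.584%), above the upper bounds of replicates 1, 2, 3 and 6, which were between 0.203 and 0.244%. The intervals of replicate 5 (from 0.174 to 0.369%) and replicate 7 (from 0.0887 to 0.421%) overlapped that of replicate 4. Replicates 4 and 5 held 29 and 27 of the 111 reads of the 3p arm, and without both the pooled share was 0.133% (from 0.102 to 0.173%). Replicate 4 thus had the highest share of the 3p arm and one of the lowest levels of the 5p arm.

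**Figure D3:**
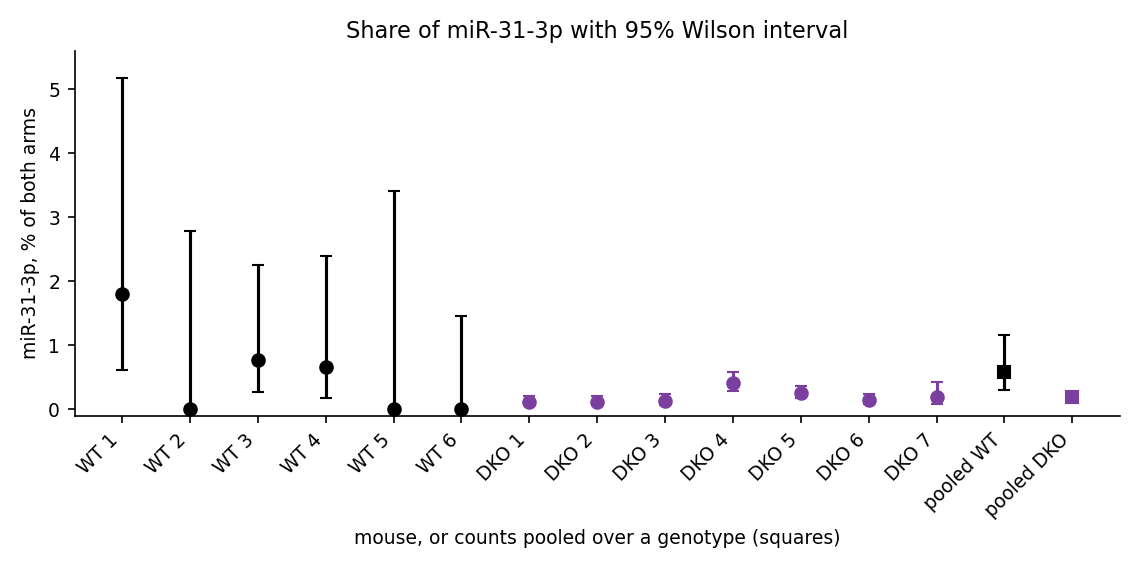
Share of miR-31-3p among the reads of both arms (y, percent) in each mouse (circles) and pooled over each genotype (squares), with 95% Wilson intervals (black for WT, purple for *Tet2/3* DKO). WT intervals are wide, with upper bounds of up to 5.18%, and *Tet2/3* DKO shares lie between 0.116 and 0.407%.

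The share of the rarer arm of mir-31 was below the median of other miRNAs in both genotypes. Among 64 hairpins with both arms listed, arms found at 1 locus only and at least 1000 arm reads in each genotype, the rarer arm held a median of 1.40% of reads in WT and 1.28% in *Tet2/3* DKO. In WT 22 of them and in *Tet2/3* DKO 11 of them had a smaller share of the rarer arm than mir-31. For 59 of these hairpins, with at least 8 reads of the rarer arm in each genotype, the log2 ratio of the rarer to the more abundant arm moved by a median of -0.12 between WT and *Tet2/3* DKO. For mir-31 it moved by -1.66, and 1 of the 59 moved further down. The value of mir-31 rests on 8 reads in WT, which is also the lowest count that the cut-off admits. Its place among the 59 was therefore not resolved.

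The ratio of hairpin reads to arm reads was stable in *Tet2/3* DKO. Hairpin counts were 62.7% ± 3.08 of the counts of both arms (SD, n = 7, from 57.7 to 66.4%) in *Tet2/3* DKO and 54.8% ± 14.6 (SD, n = 6) in WT. In WT replicate 2 it was 29.1%, in replicate 1 it was 45.8%, and in the other WT mice it was between 60.6 and 66.1%. The genotypes overlapped, and the difference of the means was smaller than the SD in WT. Pooled over mice the ratio of mir-31 was 57.4% in WT and 63.1% in *Tet2/3* DKO. Among 93 hairpins whose mean count reached 100 or more the median was 59.2% in WT and 59.3% in *Tet2/3* DKO. For some of these an abundant arm was missing from the match of arms to hairpins, which makes their ratios too high. For mir-150 the ratio used 2063 arm reads in WT, where miR-150-5p alone had 288026. The place of mir-31 among the 93 was therefore not resolved. The deposited tables do not show whether a read could be counted in both. The hairpin level is therefore not known to be a measurement separate from that of the arms.

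Mice of one genotype differed more in mir-31 than in most miRNAs of like abundance. The SD of log2 CPM of the hairpin was 0.767 in WT and 0.413 in *Tet2/3* DKO, where the medians of all tested hairpins were 0.331 and 0.316. Of the hairpins whose mean was within 2-fold of that of mir-31 in the same genotype, 90 of 92 in WT and 25 of 26 in *Tet2/3* DKO varied less. These numbers count rows, and rows with the same values were not merged. Examples are mir-466c-1 and mir-466c-2 in WT, and mir-30e and mir-30f in *Tet2/3* DKO. The rows are thus not all separate hairpin measurements. For miR-31-5p the SD was 0.593 in WT and 0.405 in *Tet2/3* DKO, and 64 of 66 and 29 of 32 mature miRNAs of like level varied less. The highest mouse exceeded the lowest by 3.38-fold in WT and 2.01-fold in *Tet2/3* DKO for the hairpin, and by 2.97-fold and 1.95-fold for the 5p arm. Both spreads were far below the gap between genotypes.

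**Figure D4:**
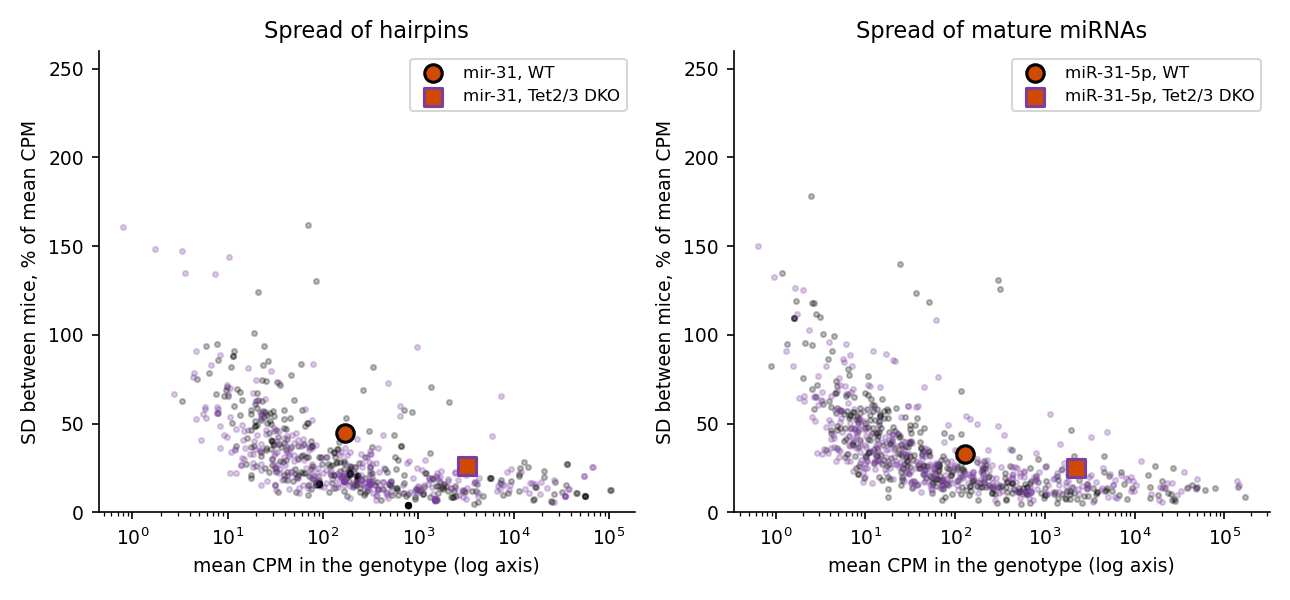
SD between mice as percent of the mean CPM (y) against the mean CPM (x, log axis) for every tested hairpin (left) and mature miRNA (right), in WT (black) and *Tet2/3* DKO (purple), with mir-31 and miR-31-5p in orange. In WT the SD was 44.5% of the mean for the hairpin and 32.7% for the 5p arm, and in *Tet2/3* DKO it was 26.3 and 24.7%, above most points at the same level.

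Profiles over the 13 mice were compared by the root mean square difference of log2 CPM, each centred on its own mean. Nearest to the mir-31 hairpin among 324 others were mir-542 (0.909), mir-450a-2 (1.15) and mir-598 (1.33), where the median of all was 2.29. Their log2 fold changes were 3.01 (SE 0.201), 2.61 (SE 0.420) and 1.96 (SE 0.269), in each case without overlap between the genotypes. The levels were far below that of mir-31, mir-542 for example being at 17.6 ± 3.71 CPM (WT) and 141 ± 27.5 CPM (*Tet2/3* DKO). WT libraries held 8 to 19 counts of mir-542, 0 to 8 of mir-450a-2 and 13 to 38 of mir-598, so these fold changes and distances rest on few WT reads. These hairpins were selected by their likeness to a miRNA that was itself selected on this contrast, so no test is attached.

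Nearest to miR-31-5p among 388 others were miR-450a-5p (0.993), miR-99b-3p (1.04) and miR-34a-5p (1.14), with a median of 2.17 over all. Their log2 fold changes were 2.59 (SE 0.181), 2.59 (SE 0.311) and 2.43 (SE 0.288). For miR-450a-5p the means were 71.4 ± 11.2 CPM (WT) and 431 ± 111 CPM (*Tet2/3* DKO). Their mature sequences are printed with the seed in capitals, to be read against that of miR-31-5p.
miR-450a-5p: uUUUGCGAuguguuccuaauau
miR-99b-3p: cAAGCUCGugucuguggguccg
miR-34a-5p: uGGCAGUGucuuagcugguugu

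None of the seeds of these 3 equals that of miR-31-5p. Within *Tet2/3* DKO their profiles differed from it. At replicate 4, where miR-31-5p was low (1.39 above its mean over all mice on the log2 scale), miR-450a-5p was at its highest (1.67).

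**Figure D5:**
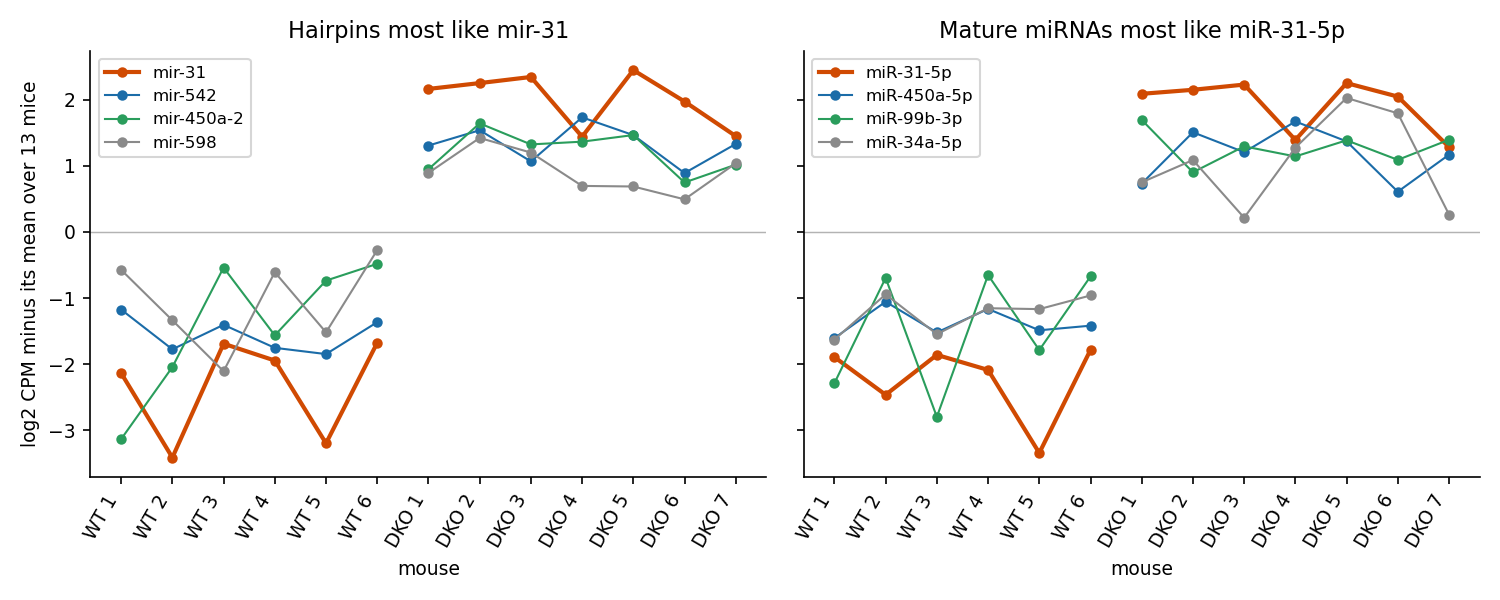
Log2 CPM minus its mean over the 13 mice (y) in each mouse (x) for mir-31 and the 3 hairpins with the nearest profiles (left) and for miR-31-5p and the 3 nearest mature miRNAs (right). All lie below 0 in WT and above 0 in *Tet2/3* DKO, and mir-31 spans the widest range, from -3.41 to 2.45 for the hairpin.

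The neighbour of mir-31 on chromosome 4 gave a measurement that the choice of mir-31 had not used. The mir-491 hairpin (chr4:88122040-88122125, plus strand) was at 59.9, 32.9, 34.7, 12.8, 24.2 and 18.6 CPM in WT replicates 1 to 6. In *Tet2/3* DKO replicates 1 to 7 it was at 30.3, 33.1, 34.0, 29.8, 45.4, 31.2 and 11.8 CPM. The groups overlapped over nearly their whole range. By the quasi-likelihood test of edgeR, its log2 fold change of 0.07 (SE 0.346) had an adjusted p of 0.883, no difference was detected for mir-491, and the sign of the change depended on the scaling.

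Other miRNAs that activation induces in T cells moved in both directions, and none by as much as mir-31. Of 17 such hairpins, 16 were tested. Of these 9 were called higher in *Tet2/3* DKO (32.6% of all tested hairpins), 1 was called lower (27.1% of all) and 6 were not called, with a median log2 fold change of 0.68 where that of all tested hairpins was 0.02. The shares and the median of all tested hairpins count copies within repeat families more than once. With upper-quartile scaling 5 of the activation hairpins were higher and 2 lower, and with library size only 0 were lower. Abundant mir-21a, a miRNA of activated and effector cells, rose by 0.77 on the log2 scale (SE 0.104, edgeR quasi-likelihood adjusted p = 5.77e-06), and mir-17, whose cluster promotes proliferation, rose by 0.74. From the same cluster, mir-92a-1 fell by 0.47 (SE 0.125, edgeR quasi-likelihood adjusted p = 0.0028). The hairpin of miR-146a, a brake on NF-kB signaling, was not called (log2 fold change -0.33, SE 0.256). Of the 17 mature sequences, 9 were called higher (28.2% of all tested), 2 lower (27.4% of all) and 6 were not called, and their median was 0.46 beside -0.01 for all. With library size only 0 of them were lower. The rise of miR-132-3p was 1.10 (SE 0.188) and that of miR-210-3p, known from hypoxia, 1.32 (SE 0.412).

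Since miR-31 is also made in epithelium and mesenchyme, marker miRNAs of other cell types stand beside its values. None of the 7 epithelial hairpins (mir-141, mir-200a, mir-200b, mir-200c, mir-429, mir-203 and mir-205) was called by edgeR among the 5 tested, and at an unadjusted p under 0.05, 0 were higher and 1 was lower. DESeq2 and limma-voom also called 0 higher and each called 1 lower, and with upper-quartile scaling edgeR called 3 lower. The summed level of the list was 601 to 810.4 CPM (WT) and 589 to 704 CPM (*Tet2/3* DKO). Of the 6 tested mature epithelial miRNAs, 3 were called lower (27.4% of all tested) and 0 higher (28.2% of all), with 1 higher at an unadjusted p under 0.05, and their sum was 1269.7 to 1678 CPM (WT) and 812 to 1082 CPM (*Tet2/3* DKO). Epithelial markers were thus present in both genotypes. Their summed levels overlapped for hairpins and were lower in *Tet2/3* DKO for mature miRNAs. The members differed widely in level. The rarest hairpin, mir-205, had 6 counts over the WT and 1 count over the *Tet2/3* DKO libraries. By contrast, mir-203 was at 513 ± 90.3 CPM (WT) and 454 ± 50.1 CPM (*Tet2/3* DKO). For miR-200c-3p the means were 793 ± 164 and 429 ± 83.3 CPM, and for miR-203-3p 236 ± 48.8 and 294 ± 46.9 CPM. Whether epithelial cells contributed to the level of mir-31 was not tested.

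Of the 6 hairpins of mesenchymal stroma, the 4 tested, mir-214 and mir-199a-1, mir-199a-2 and mir-199b, were called lower (27.1% of all tested hairpins). The list summed to 62.2 to 187 CPM (WT) and 9.71 to 37.9 CPM (*Tet2/3* DKO). The last 3 have nearly the same counts, so that their reads enter this sum more than once. The mature list had 5 of 5 lower (27.4% of all tested), with miR-214-3p at a log2 fold change of -3.39 and miR-145a-5p at -3.19. It summed to 67.6 to 120.5 CPM (WT) and 12.0 to 22.6 CPM (*Tet2/3* DKO). In this list miR-199a-3p and miR-199b-3p have identical counts, and the sum leaves out the duplicate. All 3 tested hairpins of red cells were called lower as well (27.1% of all tested), namely mir-451a, at a log2 fold change of -3.31, and mir-486a and mir-486b, which have nearly the same counts and are not separate members. Also called lower were miR-223-3p of myeloid cells (-3.07, SE 0.777) and miR-122-5p of hepatocytes (-3.87, SE 1.00), with wide spreads in WT and overlapping genotypes. The former was at 2.31 to 91.7 CPM (WT) and 0.633 to 6.57 CPM (*Tet2/3* DKO), and the latter at 46.9 to 883 CPM with a median of 74.3 (WT) and 3.16 to 49.3 CPM (*Tet2/3* DKO). Endothelial mir-126a was not called (-0.13), although miR-126a-3p was higher (0.69). The markers of muscle were too scarce to test, and of those of neurons only miR-9-5p was tested and was not called (-0.70). The part of any other cell type in the level of mir-31 was not tested.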

How the data were processed

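Small RNA libraries of sorted thymic iNKT cells from 6 WT and 7 *Tet2/3* DKO mice were analysed, grouped by GEO's sample titles. The authors processed the reads with nf-core/smrnaseq at default parameters and deposited raw counts per hairpin and raw counts per mature sequence, 1 column per mouse. The aligner, the miRNA database release and the treatment of reads that match several sequences are not given in the sources used here. Of deposited columns, 0 were left unmapped.

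From the deposited counts, features were kept by filterByExpr (minimum count 10, minimum total count 15), scaled by TMM and fitted with edgeR 4.0.16 (robust quasi-likelihood, genotype only, all 13 mice, Benjamini-Hochberg adjustment within each table, called at adjusted p under 0.05). CPM divide counts by the TMM-scaled total of the kept features. Log2 CPM used a prior count of 2. SE is the log2 fold change divided by the square root of F. R 4.3.3, limma 3.58.1, DESeq2 1.42.0, Python 3.11.15, SciPy 1.17.1 and matplotlib 3.10.9 were used. The scripts were tested on simulated data. No 2 libraries of a genotype agreed within sampling noise (chi-square per degree of freedom at least 15.0). Molecular identifiers are not named in the sources used here, and 95% intervals and limits of 3 counts cover counting error only.

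MiRNA names were matched to RefSeq for 987 of 1127 hairpins and 1078 of 1297 mature sequences, for positions, sequences and arms. Alternatives were RLE, upper-quartile and library-size scaling, other count filters, DESeq2, limma-voom with sample weights, a replicate block and leaving out each mouse. The genes named are mir-31 and its arms, the 3 nearest profiles per table, the neighbours in rank and on the chromosome, T cell markers, and members of the lists. Which list members the text gives was decided after their values were seen. The member and the lists were chosen with earlier results of these data known.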

Additional observations from a re-analysis of the deposited data

Results flagged for a closer look

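Log2 CPM of mir-31, its arms and the miRNAs named by profile or position, and the ratios of mir-31, were checked within each genotype for a mouse far from the others. Of 24 groups 1 held such a mouse, and by chance about 1 in 20 would. The mir-491 hairpin was lowest in *Tet2/3* DKO replicate 7, at 3.75 log2 CPM where the next mouse was at 4.97. That library was the shallowest of its genotype, and the cause was not tested. For mir-31, miR-31-5p and miR-31-3p no mouse stood apart in this way.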

How the results depend on the processing

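The differences in the mir-31 hairpin and its arms kept their direction under every alternative that gave a value. The log2 fold change of the hairpin was between 3.99 and 4.58 over the other scalings, filters, tests and the block, and between 4.10 and 4.44 without each mouse in turn. That of miR-31-5p was between 3.94 and 4.34 and between 3.89 and 4.14, and that of miR-31-3p (2.48 from pooled counts) between 2.30 and 2.71 and between 2.18 and 3.005, the highest without WT replicate 1. For miR-31-3p the stricter filter, limma-voom and the block gave no value, since it did not pass their filters. The share of the 3p arm without each mouse was 0.420 to 0.730% (WT) and 0.157 to 0.204% (*Tet2/3* DKO). Scaling moved the median log2 fold change of tested hairpins from 0.02 to 0.36 with library size only and to -0.22 with upper quartile. Hairpins called lower (95) were 56 with library size only, 156 without the filter and 164 with DESeq2. Replicate numbers are only names: deviations of same-numbered mice correlated between -0.05 and 0.34 for hairpins and between 0.01 and 0.34 for mature miRNAs, and 3 and 2 of 6 WT mice correlated best with their own number. With the replicate block over replicates 1 to 6, the log2 fold change was 4.38 for mir-31 and 4.16 for miR-31-5p, and 115 hairpins were higher and 102 lower, and 103 and 122 mature miRNAs.

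The log2 fold change of mir-491 was -0.040 with RLE, -0.20 with upper quartile and -0.0074 with DESeq2, and between -0.059 and 0.35 without each mouse. Counts over the lists under these settings were added after seeing the data. Activation hairpins called higher were 5 with upper quartile, and those called lower were 0 with library size only or no filter and 2 with upper quartile, while mature ones called lower were 0 with library size only or no filter. Epithelial hairpins called lower were 3 with upper quartile, 1 with RLE, the stricter filter, DESeq2 or limma-voom, and between 0 and 1 without each mouse, and 1 mature one was higher with library size only. With the stricter filter 1 mature miRNA of stroma was still called lower, as fewer were tested. The depth of WT libraries limits what can be said of the 3p arm, with 8 reads in all.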
